A study of Mus musculus with 13 samples.

Results

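Libraries made from the hippocampus of 13 mice were divided by their level of Ttr, the transcript of transthyretin and the most abundant secretory product of the choroid plexus epithelium. The members were chosen by measured values: 7 of the 13 libraries held at least 1000 CPM of Ttr (counts scaled to 1000000 counts per library) and are called rich, and 6 held fewer and are called poor. Rich libraries were saline 38, Aducanumab 56 and 58, and ACLP-NT 17, 27, 49 and 53. Poor libraries were saline 18, 19 and 32, Aducanumab 24 and 50, and ACLP-NT 55. Nearest the threshold lay ACLP-NT 27 with 1549 CPM of Ttr and Aducanumab 24 with 609 CPM. Because Ttr made the classes, its values are a description and are not tested.

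All 13 mice carried 5xFAD, human transgenes with mutations of familial Alzheimer's disease that lead to amyloid plaques, and no mice without the transgenes are among the libraries. Of the mice, 4 received saline, 4 received Aducanumab, an antibody against aggregated amyloid beta, and 5 received ACLP-NT, known here by its code name alone. Oligo(dT) beads were used in making the libraries for bulk RNA sequencing. Age, sex, dose, time and dissection method are not given in those sources that were used, and the numbers in the labels are the sole mark that libraries are separate animals, so p-values measure the spread between these libraries, whatever its source. The classes were uneven over the treatments: 1 of 4 saline, 2 of 4 Aducanumab and 4 of 5 ACLP-NT libraries were rich. Treatment was therefore a term in the fit that compared the classes, while counts of genes whose classes do not overlap take no account of treatment.

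The choroid plexus is a fringe of folded tissue that hangs in the brain ventricles, next to the hippocampus along the choroid fissure. Its cuboidal epithelium is joined by tight junctions, secretes cerebrospinal fluid by moving ions and water, and releases carrier proteins and growth factors. Beneath it lie fenestrated capillaries, fibroblasts and macrophages. The epithelium bears cilia, as does the neighbouring ependyma that lines the ventricles.

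Depth and general quality overlapped between the classes. Total counts ran from 53642019 to 69734713 in the rich and from 56858092 to 67374311 in the poor libraries, and the number of genes with a count ran from 26556 to 27598 and from 26434 to 27205. Mitochondrially encoded genes took 6.09% to 7.26% of counts in the rich and 6.16% to 7.24% in the poor libraries. None of 4 such measures passed an exact two-sided permutation test of the classes within treatments (adjusted p from 0.4 to 0.692 over the 4, smallest p possible 0.00833). No pair of libraries of a treatment group agreed within counting error, with a chi-square per degree of freedom of at least 13.9.

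Ttr spanned a wide range in each treatment group. In saline it was 20.9 CPM in library 18, 75.7 in 32, 484 in 19 and 4543 in 38. In Aducanumab it was 48.7 CPM in library 50, 609 in 24, 4066 in 56 and 4608 in 58. In ACLP-NT it was 48.4 CPM in library 55, 1549 in 27, 1952 in 17, 3397 in 49 and 4491 in 53. The highest libraries of the 3 groups thus lay close together, and so did the lowest of Aducanumab and ACLP-NT. Saline 19 and Aducanumab 24 were poor by the threshold but stood above the other 4 poor libraries. Ttr alone made up 0.155% to 0.461% of all counts in the rich libraries.

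The label of the classes was checked against other genes of the choroid plexus epithelium. Kl, which encodes the anti-ageing hormone Klotho, had a lowest, median and highest level of 86.8, 207 and 255 CPM in the rich libraries and 20.5, 24.8 and 47.8 CPM in the poor. Folr1, the folate receptor that carries folate into the cerebrospinal fluid, had 12.8, 36.4 and 46.8 CPM against 0.824, 1.18 and 6.87 CPM. For Kcne2, a potassium channel subunit of the epithelium's apical membrane, the levels were 15.0, 27.3 and 37.1 CPM against 0.262, 0.46 and 4.66 CPM. In all 3 genes the lowest rich library stood above the highest poor library, and within the poor libraries saline 19 and Aducanumab 24 held the 2 highest levels. The log2 fold changes of rich over poor were 2.79 for Kl (standard error, SE, 0.269), 3.82 for Folr1 (SE 0.553) and 4.40 for Kcne2 (SE 0.626), with edgeR adjusted p of 1.45e-04, 0.00175 and 0.00154. The 3 genes lie at positions 150876072 to 150917282 of chromosome 5 (Kl), 101507538 to 101519995 of chromosome 7 (Folr1) and 92089277 to 92095017 of chromosome 16 (Kcne2) as the deposited table prints them, whose build the sources used here do not name. Together with Kcnj13, Clic6, Otx2, Aqp1, Cldn2, Tmem72, Sostdc1 and Slc4a5, all 11 markers were called higher in the rich libraries, by 2.79 to 4.40 on the log2 scale, and all 11 were separated without overlap. These genes were known from earlier results of these data to vary together with Ttr, so their count is not independent support for the label. In bulk RNA, more choroid plexus cells in a sample and more RNA per cell cannot be told apart.

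**Figure D1:**
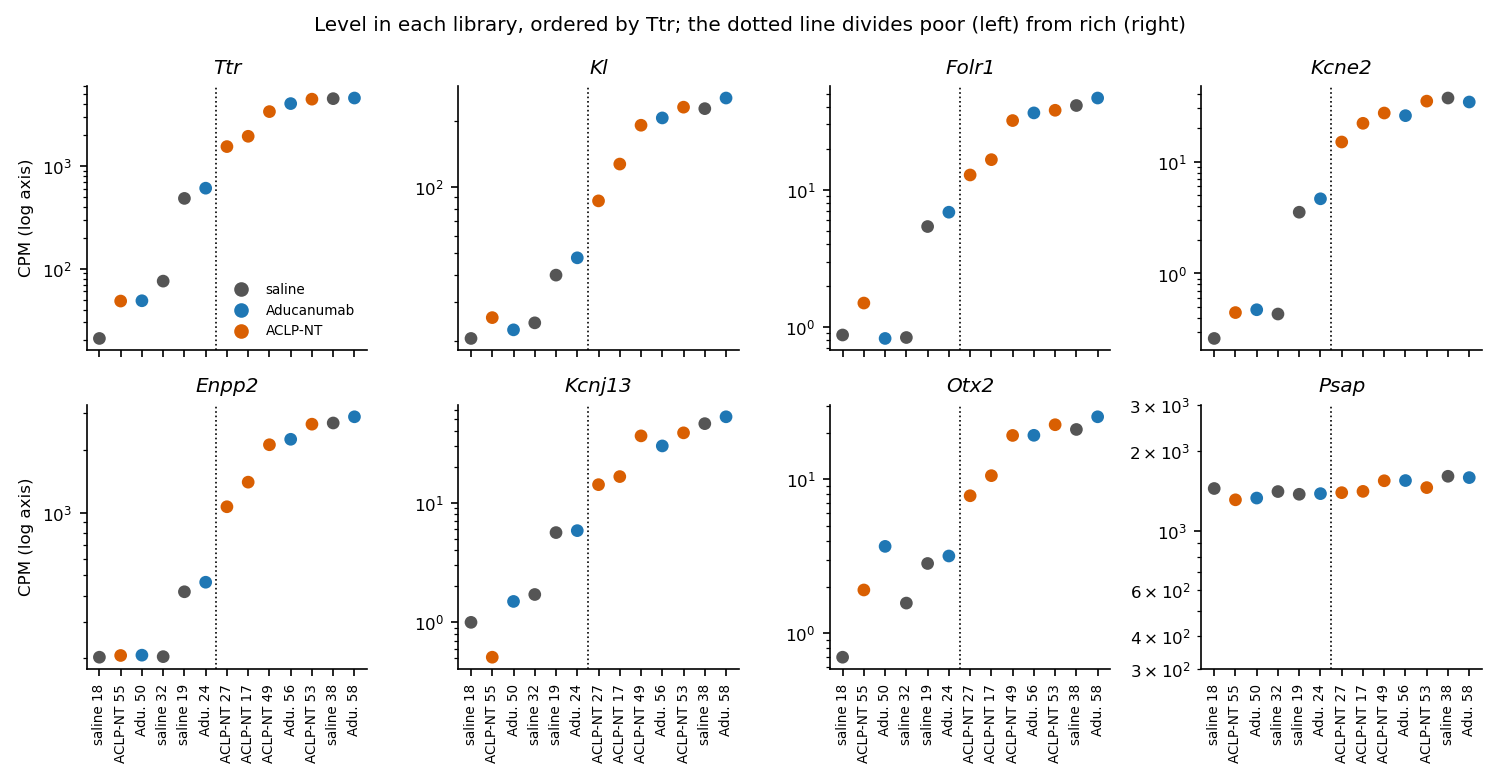
Level of Ttr, 6 other choroid plexus genes and Psap in each of the 13 libraries, in CPM on a log axis, ordered by Ttr and coloured by treatment. Points to the right of the dotted line are the 7 rich libraries; saline 19 and Aducanumab 24 stand between the other poor libraries and the rich ones for Kl, Folr1 and Kcne2, while Psap runs from 1311 to 1610 CPM throughout.

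Nearly all genes that were called were higher in the rich libraries. Of 22064 genes tested besides Ttr, 481 were called higher in the rich libraries (2.18%) and 7 lower (0.0317%) by edgeR's quasi-likelihood test with Benjamini-Hochberg adjustment at 0.05. In 282 genes (1.28%) every rich library exceeded every poor library, and in 17 genes (0.077%) every rich library was below every poor library. Of the 481 genes called higher, 240 were separated without overlap, 239 had a log2 fold change of 1 or more, 121 had one of 2 or more, and 91 had one under 0.5. Over all 22064 genes the directions were about even, with 10820 log2 fold changes above 0, 11244 below 0 and a median of -0.003. At an unadjusted p under 0.05, 1693 genes were higher and 685 lower. Genes called higher took 1.297% to 2.14% of counts in the rich and 0.977% to 1.14% in the poor libraries. The choice of those genes from the same libraries favours this difference. Removing single libraries changed how many genes passed: 174 were called higher without saline 38, the sole rich saline library, and 319 without Aducanumab 58, while 161 were called in the full set and also without each of the 13 libraries in turn. The number called lower went from 7 to between 1 (without saline 38) and 13 (without Aducanumab 56). Of 81 genes named here that were called, 49 kept the call without each library in turn. Another 16 lost it without saline 38 alone: Aqp1, Car14, Cdh3, Cldn2, Kcne2, Mfrp, Pla2g5, Slc12a2, Slc29a4, Slc39a4, Slc4a5, Tmem72, Tmprss11a, Trp73, Vat1l and Wfdc2, with log2 fold changes of 0.62 to 4.40 and edgeR adjusted p of 0.0513 to 0.159 without that library. Another 9 called higher, Cd63, Chrnb4, Folr2, Foxj1, Psap, Slc4a10, Sox9, Steap4 and Vcam1, lost the call without saline 38 and also without 1 or more other libraries, with log2 fold changes of 0.18 to 2.46 and edgeR adjusted p of 0.133 to 0.288 without saline 38. Of the 13 libraries left out in turn, 11 cost Sox9 its call, 8 cost Folr2 its call, and 7 did so for Cd63 and 7 for Vcam1.

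**Figure D2:**
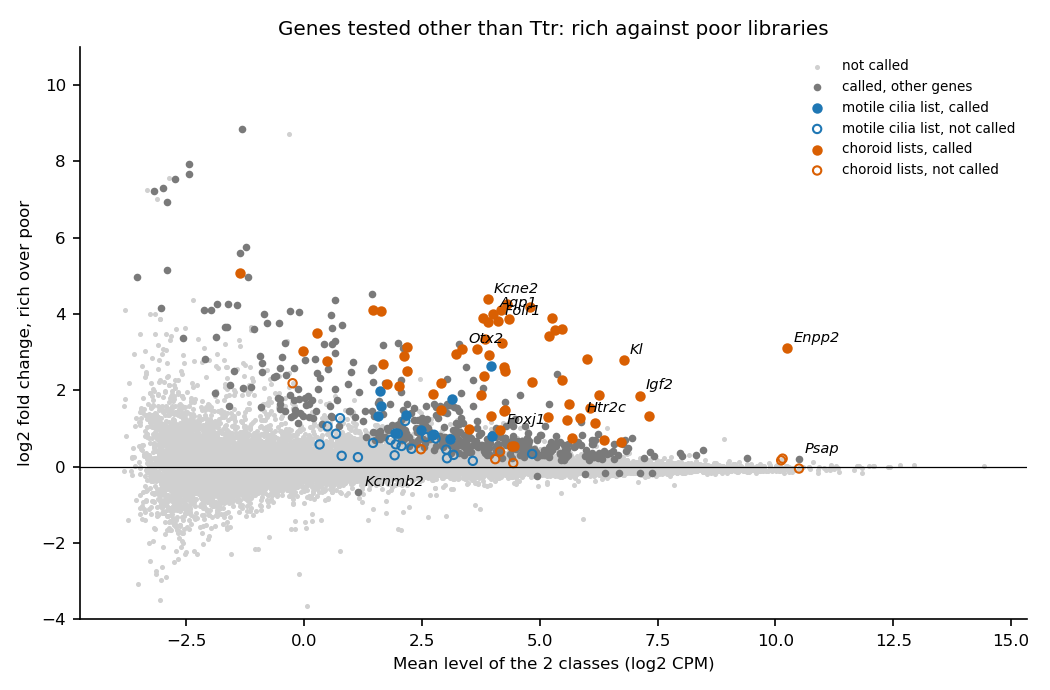
Log2 fold change of rich over poor libraries (vertical axis) against the mean level of both classes in log2 CPM (horizontal axis) for 22064 genes. Filled orange points are choroid plexus list genes that were called, filled blue points called genes of motile cilia, open points list genes that were not called, and dark grey points the other called genes; nearly all called genes lie above 0.

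Genes of 4 lists of known choroid plexus epithelial genes were higher in the rich libraries as a group. The lists were drawn up with earlier results of these data known. Counts of their members, here and list by list below, are thus not independent support for the label of the classes. Of 70 tested genes besides Ttr, 61 were called higher and 0 lower, against 2.18% of all genes. Every rich library exceeded every poor library in 52 of them, against 1.28% of all genes. Their median log2 fold change was 2.32, beside -0.003 for all genes. The summed level of the lists, without Ttr, ran from 5876 to 10823 CPM in the rich and from 4471 to 5319 CPM in the poor libraries. Members that were not called are part of the sum. Of these, Atp1b1 alone had 1239 to 1521 CPM in the rich and 1286 to 1555 CPM in the poor libraries. Without saline 38, 43 of the 70 were called, and without any other single library 58 to 62. The 61 listed genes made up 12.7% of the 481 genes called higher.

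Among secreted and carrier proteins, 12 of 14 genes were called higher, with a median log2 fold change of 1.99. Enpp2, which encodes autotaxin, the enzyme that makes lysophosphatidic acid, had the highest level per length after Ttr among the 12 that were called. Its mean was 348 FPKM (fragments scaled to gene length and library size) in the rich and 45.3 FPKM in the poor libraries, beside 2753 and 168 FPKM for Ttr. Its lowest, median and highest levels were 1068, 2252 and 2888 CPM in the rich and 202, 207 and 464 CPM in the poor libraries, without overlap. The log2 fold change was 3.11 (SE 0.289, edgeR adjusted p 1.10e-04). Igf2, the insulin-like growth factor made by choroid plexus and meninges, had 109, 194 and 360 CPM against 31.4, 76.0 and 106 CPM. Aducanumab 58 held the highest level of Igf2, and the groups did not overlap, although saline 19 came within a few CPM of ACLP-NT 27. Its log2 fold change was 1.86 (SE 0.274, edgeR adjusted p 0.00189). Igfbp2, which binds insulin-like growth factors, followed with 1.87. The largest log2 fold changes in the list were 3.89 for F5, coagulation factor V, 3.87 for Ecrg4, a secreted peptide precursor, and 3.59 for Mfrp, a membrane protein related to frizzled receptors. Sostdc1, a secreted antagonist of BMP signalling, stood at 3.34, and Lbp, the lipopolysaccharide binding protein, at 2.60. The 2 genes that were not called, Clu and Ctsd, had log2 fold changes of 0.21 and 0.16, with Clu at a mean of 1186 CPM in the rich and 1089.7 CPM in the poor libraries.

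Transport genes covered a wide range of fold changes. Of 27 genes, 22 were called higher (median log2 fold change 2.21). At the upper end were channels and exchangers of the secreting epithelium: 4.25 for Slc4a5, a sodium bicarbonate cotransporter, 4.10 for Kcnj13, an inward rectifier potassium channel, 4.01 for Aqp1, the water channel of the apical membrane, 3.60 for Clic6, a chloride channel family member, and 3.08 for Trpv4, a cation channel that responds to osmotic stress. Aqp1 had lowest, median and highest levels of 9.60, 35.6 and 41.4 CPM in the rich and 0.332, 1.03 and 7.05 CPM in the poor libraries, without overlap. Its call in edgeR was lost without saline 38 (log2 fold change 3.78), as were those of Kcne2 (4.22) and Slc4a5 (4.25), while those of Kcnj13, Clic6 and Trpv4 were kept whichever library was left out. In the middle lay Slc2a12, a glucose transporter (2.50), Slc13a4, a sulfate transporter (2.21), and Slc39a4, a zinc transporter (2.16). At the lower end of those called were 0.64 for Slc12a2, the sodium potassium chloride cotransporter, 0.74 for Slc29a4, a monoamine transporter, 1.13 and 1.32 for the carbonic anhydrases Car12 and Car14, 1.34 for Trpm3, and 1.53 for the anion exchanger Slc4a2. The mean of Slc12a2 in the poor libraries was 85.0 CPM, against 2.38 CPM for Aqp1. The 5 genes not called were Atp1b1, Abcg2, Slc46a1, Slc19a1 and Slc22a8, with log2 fold changes of -0.05, 0.09, 0.19, 0.39 and 0.52. Atp1b1, a subunit of the sodium pump, had 1437 CPM in the rich and 1459 CPM in the poor libraries.

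Receptors and regulators were called higher in 13 of 14 cases, with a median log2 fold change of 2.14. Prlr, the prolactin receptor, changed by 3.41, Ace, angiotensin-converting enzyme, by 2.83, and Lepr, the leptin receptor, by 1.901. Htr2c, the serotonin 2C receptor that neurons also carry, had 51.9, 82.3 and 101 CPM in the rich and 24.1, 39.6 and 50.8 CPM in the poor libraries. The 2 ranges of Htr2c came within about 1 CPM of each other without overlap, and its log2 fold change was 1.27 (SE 0.161, edgeR adjusted p 6.80e-04). Among transcription factors, Otx2, a homeodomain factor needed for choroid plexus development, had 7.81, 19.3 and 25.4 CPM against 0.699, 2.37 and 3.67 CPM. The highest poor library for Otx2 was Aducanumab 50, where Ttr was 48.7 CPM, and not saline 19 or Aducanumab 24. The log2 fold change of Otx2 was 3.08 (SE 0.336, edgeR adjusted p 2.74e-04). Lmx1a and Msx1, homeobox genes of the dorsal midline, changed by 2.76 and 1.87. Foxj1, the regulator of motile cilia, changed by 0.95, and Rfx2 was the gene not called (0.45).

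Since Otx2 rose with the classes, promoters were searched for TAATCC, the core bound by factors of the Otx family, on both strands of the 300 bases around each RefSeq start site (build GRCm38.p6). Of 61 choroid plexus genes called higher, 48 had a promoter in the table, and 7 of these (14.6%) held the motif. The share was 9.25% of 346 genes called higher and 7.17% of 13768 genes tested. The 7 genes were Abca4, Ace, Car14, Igf2, Mfrp, Otx2 and Vat1l. The 250 bases before the start are shown for 4 of them, with TAATCC or its reverse complement GGATTA in capitals. These 4 hold the motif there and are Otx2 itself and the genes of a frizzled-related membrane protein, an enzyme and a transporter. Car14 and Vat1l also hold the motif in those bases, beginning 61 and 79 bases before the start, and are not shown. The motif begins 211 bases before the start in Otx2, 134 in Mfrp, 27 in Ace and 58 in Abca4.
Otx2 (chr14:48665110-48665359, minus strand): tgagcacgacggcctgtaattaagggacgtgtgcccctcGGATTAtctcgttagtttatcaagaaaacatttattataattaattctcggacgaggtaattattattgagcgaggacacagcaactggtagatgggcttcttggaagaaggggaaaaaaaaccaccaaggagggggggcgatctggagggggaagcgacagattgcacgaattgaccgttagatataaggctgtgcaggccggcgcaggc
Mfrp (chr9:44101520-44101769, plus strand): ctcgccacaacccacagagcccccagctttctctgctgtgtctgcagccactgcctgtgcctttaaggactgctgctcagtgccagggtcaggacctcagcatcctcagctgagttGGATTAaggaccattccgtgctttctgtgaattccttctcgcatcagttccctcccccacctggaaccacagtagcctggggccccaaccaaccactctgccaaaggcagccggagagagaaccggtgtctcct
Ace (chr11:105967698-105967947, plus strand): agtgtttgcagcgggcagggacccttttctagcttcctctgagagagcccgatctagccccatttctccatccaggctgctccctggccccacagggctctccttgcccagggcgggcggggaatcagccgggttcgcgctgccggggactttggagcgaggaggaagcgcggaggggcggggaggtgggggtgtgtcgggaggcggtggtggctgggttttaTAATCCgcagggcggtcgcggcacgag
Abca4 (chr3:122044210-122044459, plus strand): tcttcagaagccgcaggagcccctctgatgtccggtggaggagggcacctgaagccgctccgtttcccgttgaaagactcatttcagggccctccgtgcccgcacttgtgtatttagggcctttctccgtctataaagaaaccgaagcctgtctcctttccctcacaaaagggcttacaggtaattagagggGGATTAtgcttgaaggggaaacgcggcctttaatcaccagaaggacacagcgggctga
A match in these windows is a description and shows no binding.

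Junctions and structural proteins had the largest median, 2.89 on the log2 scale, and 14 of 15 genes were called higher. Tmem72, a membrane protein of the epithelium, had 19.9, 59.6 and 70.6 CPM in the rich and 0.579, 1.04 and 10.9 CPM in the poor libraries. Its log2 fold change was 4.18 (SE 0.693, edgeR adjusted p 0.00418), a call that was lost without saline 38. Cldn2, the claudin of leaky, water-conducting epithelia, changed by 3.79, and Cldn1, a sealing claudin, by 2.95. Cdh3, P-cadherin, changed by 4.11, the collagens Col8a1, Col8a2 and Col9a3 by 3.89, 2.92 and 2.26, and the epithelial keratins Krt18 and Krt8 by 2.89 and 2.69. Krt8 and Krt18 were low, with means of 5.43 and 7.49 CPM in the rich libraries. Ezr, which links the membrane to actin and is expressed in many brain cells, changed by 0.71, from a mean of 63.3 CPM in the poor libraries. Cldn3 missed the threshold with a log2 fold change of 2.18 (SE 0.538, edgeR adjusted p 0.0546) at 1.34 CPM in the rich libraries.

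How much of a gene's level moved with Ttr was described by a least-squares line of its CPM on the CPM of Ttr over the 13 libraries. For each 1000 CPM of Ttr, Enpp2 gained 561 CPM, Kl 48.3, Igf2 44.5, Psap 43.2, Trpm3 39.2 and Ace 28.3 CPM. The level on the line at a Ttr of 0 was 0.389 CPM for Folr1 and 0.0909 CPM for Aqp1, near 0 on the scale of their rich libraries. It was 20.2 CPM for Kl, 177 CPM for Enpp2, 34.8 CPM for Htr2c, 56.1 CPM for Igf2 and 1362 CPM for Psap. Of the 481 genes called higher, 69 had a level at a Ttr of 0 under 10% of their rich mean, and 241 had one over 50% of it. Genes whose level relative to Ttr varied least over the 7 rich libraries, among genes of at least 1 CPM, were Pla2g5, F5, Clic6, Mfrp and Rdh5, with a standard deviation (SD) of the log2 ratio to Ttr of 0.0683, 0.0785, 0.0805, 0.0912 and 0.0973. Over the same libraries the SD of log2 Ttr itself was 0.638, and the median SD of the ratio was 0.433 for genes called higher and 0.675 for all genes. The genes called higher were chosen by a split on Ttr that used these libraries, so the difference is a description. Pla2g5, a secreted phospholipase that was on none of the choroid plexus lists, had 1.999, 5.22 and 6.40 CPM in the rich and 0.281, 1.03 and 1.15 CPM in the poor libraries. It was called higher by 2.59 (SE 0.393, edgeR adjusted p 0.00237), though not without saline 38. Genes of this likeness share their libraries and depth, and the ratio says nothing on shared function.

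**Figure D3:**
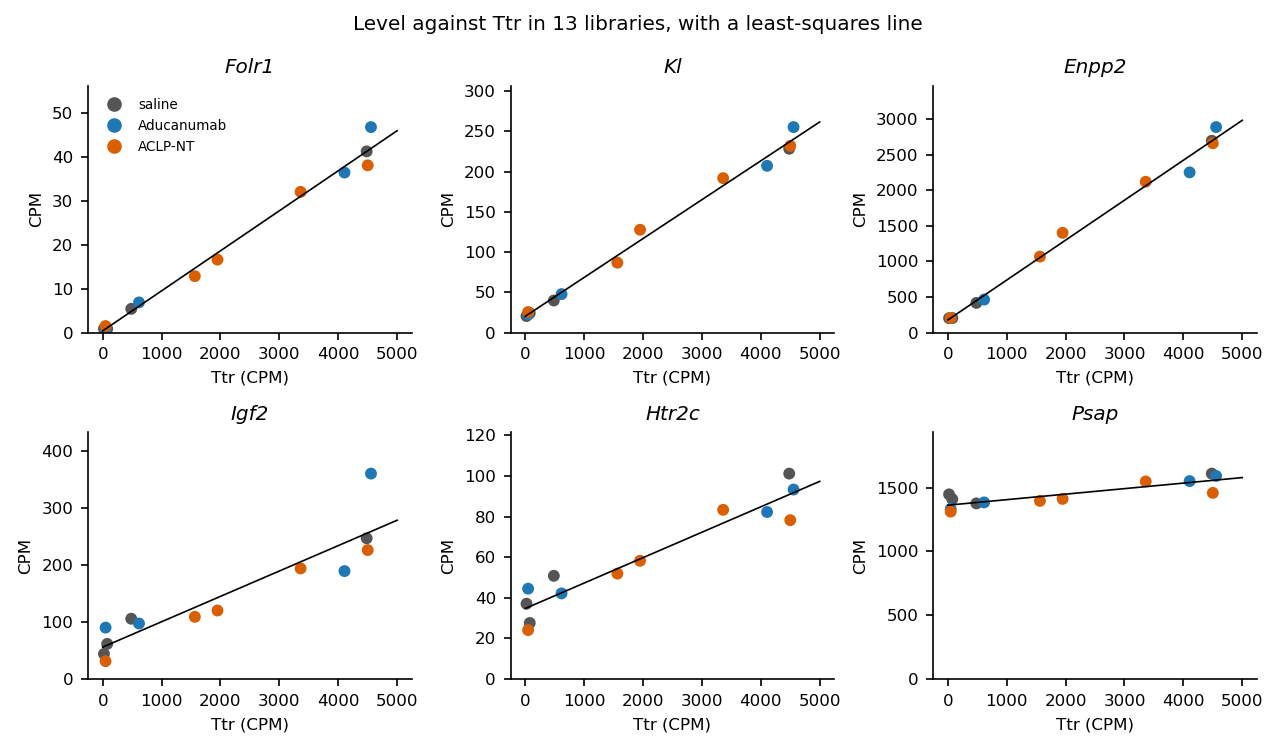
Level of 6 genes in CPM (vertical axes, each starting at 0) against Ttr in CPM (horizontal axes) in 13 libraries coloured by treatment, with a least-squares line. Folr1 meets the vertical axis near 0, Kl and Enpp2 a little above it, Igf2 and Htr2c at 56.1 and 34.8 CPM, and Psap at 1362 CPM.

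Genes of motile cilia were higher in part. Of 33 genes tested, 11 were called higher (against 2.18% of all genes) and 5 were higher without overlap (against 1.28%). All 33 log2 fold changes were above 0, with a median of 0.77. Drc7, a subunit of the dynein regulatory complex, had 9.75, 29.8 and 36.1 CPM in the rich and 3.09, 3.88 and 7.92 CPM in the poor libraries, without overlap. Its log2 fold change was 2.64 (SE 0.326, edgeR adjusted p 5.75e-04). Cfap52 and the dynein heavy chain Dnah6 changed by 1.98 and 1.78. Among the usual markers of ependyma, Foxj1 was called higher (log2 fold change 0.95), though not without saline 38 or some other libraries. Ccdc153 and Tmem212 were not called, with log2 fold changes of 0.46 and 0.28. Their means were 5.65 and 1.94 CPM in the rich and 4.05 and 1.53 CPM in the poor libraries. Rarres2 ran from 4.70 to 15.0 CPM in the rich and from 5.69 to 7.94 CPM in the poor libraries. On a separate list of ependyma and neural stem cells, 1 of 13 genes was called (against 2.18% of all genes), Vcam1 (0.55), with a list median of 0.07. The summed level of the cilia list was 167 to 327 CPM in the rich and 140 to 182 CPM in the poor libraries, so the classes overlapped. Gmnc and Trp73, regulators at the start of the multiciliated programme, were called higher, Gmnc by 1.27 and Trp73 at 8.12 CPM in the rich against 4.17 CPM in the poor libraries; both were singled out after their values were seen.

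Markers of the vessels and stroma of the choroid plexus had smaller median changes than those of its epithelium, a difference that was not tested. Of 9 genes of fenestrated endothelium, 2 were called higher, against 2.18% of all genes. Plvap, which forms the diaphragms of fenestrae, had 7.94, 8.58 and 10.05 CPM in the rich and 5.80, 6.32 and 6.98 CPM in the poor libraries, and its log2 fold change was 0.51 (SE 0.0856, edgeR adjusted p 0.00451). Exoc3l2 was higher by 1.80 at about 1.03 CPM. The list median was 0.44, also with Gpihbp1, which had 0 counts in all poor libraries, set to a bound from 3 counts per library. Of 15 genes of brain endothelium, 1 was called (against the same 2.18%), Slco1c1, a thyroid hormone and anion transporter that the choroid plexus also expresses (0.86), and of 12 pericyte and smooth muscle genes, 0 were called (1 at an unadjusted p under 0.05).

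Fibroblast and macrophage markers had log2 fold changes above 0, with 1 call among them. Of 20 genes of meningeal and stromal fibroblasts, 0 were called by edgeR, against 2.18% of all genes, and 10 were higher at an unadjusted p under 0.05, against 1693 of all 22064 genes. All 20 log2 fold changes were above 0, against 10820 of 22064, and their median was 0.69. The score of the list (mean centred log2 CPM) did not follow the classes in every library: it was -0.96 in rich Aducanumab 56 and -1.01 in poor ACLP-NT 55, the 2 lowest, and 1.27 in rich Aducanumab 58, the highest. The summed level of the list was 176 to 538 CPM in the rich and 151 to 306 CPM in the poor libraries. Col1a1 had 6.14, 12.5 and 25.1 CPM against 5.71, 10.01 and 12.9 CPM, so most of the rich libraries lay within the poor range or near it. Of 11 genes of border-associated macrophages, the macrophages of meninges and choroid plexus, Folr2 alone was called (log2 fold change 2.08 at a mean of 0.705 CPM), all 11 were above 0, and the median was 0.63. Without Aducanumab 50 and Aducanumab 58, chosen to be left out after the data were seen because their markers of neighbouring tissue stood apart, the medians were 0.42 for fibroblasts and 0.34 for macrophages. Rich ACLP-NT 49 was kept, although some such markers were high there too. It had 61.0 CPM of Zic1 and 53.4 CPM of Prkcd, beside 68.5 and 52.2 CPM in Aducanumab 58. Its score for thalamus and habenula was 0.17, beside 0.31 in Aducanumab 58 and 0.98 in Aducanumab 50. Of 7 genes of MHC class II, 0 were called (1 at an unadjusted p under 0.05).

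**Figure D4:**
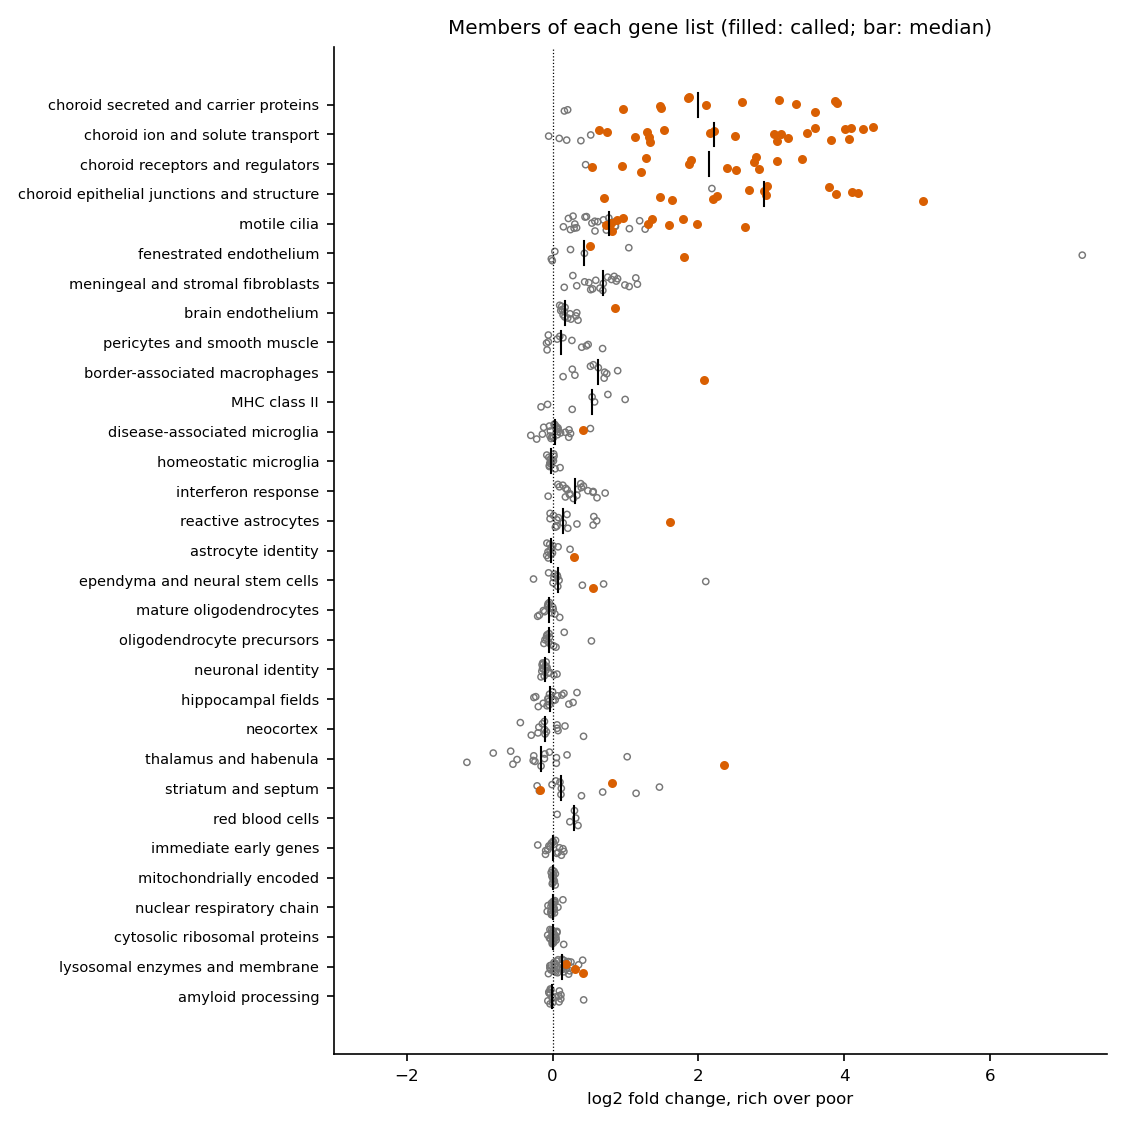
Log2 fold change of rich over poor libraries for each tested member of 31 gene lists, with filled points for members that were called, open points for others and a bar at the median. Medians are 1.99 to 2.89 for the 4 choroid plexus lists, 0.77 for motile cilia and 0.69 for fibroblasts, and lie near 0 for neurons, oligodendrocytes, microglia, ribosomal and mitochondrial genes; the open point beyond 7 is Gpihbp1.

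Few genes of the amyloid response were called, a share near the 2.18% of all genes. Of 25 genes of disease-associated microglia, the state in which microglia gather at plaques, 1 was called higher, Cd63 (log2 fold change 0.42), and the median was 0.03. Trem2, the receptor on which this state depends, had a log2 fold change of 0.03 (SE 0.169, edgeR adjusted p 0.969), and Cst7 one of 0.02. Of 14 genes of homeostatic microglia, 0 were called, with a median of -0.02 and 0 at an unadjusted p under 0.05 in edgeR. Of 20 interferon response genes, 0 were called by edgeR, and 4 were higher at an unadjusted p under 0.05, against 1693 of all 22064 genes. Of the 20, 19 were above 0, against 10820 of 22064, and the median was 0.31, or 0.18 without Aducanumab 50 and 58. The score of the list was lowest in rich ACLP-NT 27 (-0.82) and rich ACLP-NT 53 (-0.48), and highest in rich ACLP-NT 49 (0.59). Among 16 genes of amyloid processing 0 were called (1 at an unadjusted p under 0.05), and App had a mean of 1257 CPM in the rich and 1273 CPM in the poor libraries. Of 15 genes of reactive astrocytes, which surround plaques, 1 was called higher, 13 were above 0 and the median was 0.14. The gene called was Steap4, a metalloreductase, with 0.803, 1.49 and 2.06 CPM in the rich and 0.14, 0.449 and 0.789 CPM in the poor libraries, without overlap but nearly touching. Its log2 fold change was 1.62 (SE 0.304, edgeR adjusted p 0.00996). Gfap, the intermediate filament of astrocytes and 1 of the 2 list members below 0, had a log2 fold change of -0.03.

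Lysosomal genes, which several cell types share, had small fold changes. Of 33 genes, 3 were called higher (against 2.18% of all genes), Cd63 and Psap among them, and 12 were higher at an unadjusted p under 0.05 (against 1693 of 22064). Of the 33, 28 were above 0, with a median of 0.13. Psap, the precursor of the saposins that activate lysosomal lipid breakdown, had 1396, 1548 and 1610 CPM in the rich and 1311, 1380 and 1447 CPM in the poor libraries. The ranges of Psap overlapped, and its log2 fold change was 0.18 (SE 0.0387, edgeR adjusted p 0.0203). The call of Psap was lost when any 1 of saline 38, Aducanumab 24, 50 and 58 and ACLP-NT 55 was left out.

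Lists of the parenchyma were near 0. Of 17 neuronal genes, 0 were called, against 2.18% of all genes called higher and 0.0317% called lower. At an unadjusted p under 0.05 in edgeR, 1 was lower, against 685 of all 22064 genes. Of the 17, 15 were below 0, and the median was -0.10. Snap25, a presynaptic protein, had a mean of 1217 CPM in the rich and 1294 CPM in the poor libraries (log2 fold change -0.14, SE 0.0763, edgeR adjusted p 0.588). Medians were -0.04 for 19 genes of hippocampal fields, -0.11 for 14 of neocortex, -0.05 for 14 of mature oligodendrocytes and -0.02 for 13 of astrocytes. The 1 call among these was Sox9 (0.30, higher), against 2.18% of all genes called higher. Mbp, a myelin protein, had a log2 fold change of -0.04. Of 17 genes of thalamus and habenula, 12 were below 0 and the median was -0.16. Chrnb4 alone was called higher (2.35), against 2.18% of all genes, at a mean of 1.02 CPM in the rich libraries. Of 13 genes of striatum and septum, Ppp1r1b was called higher (0.82) and Pde10a lower. Ppp1r1b, which encodes DARPP-32 and is also a gene of the choroid plexus, had 54.2, 79.8 and 86.0 CPM against 36.4, 42.7 and 58.1 CPM.

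The 7 genes called lower were small in size of change. Kcnmb2, a subunit of calcium-activated potassium channels, had 1.34, 1.88 and 2.23 CPM in the rich and 2.23, 2.70 and 3.13 CPM in the poor libraries. It fell by 0.67 on the log2 scale (SE 0.162, edgeR adjusted p 0.0487). The other 6, Clec2l, Tmem25, Pde10a, Zmat2, Slc20a1 and Nav1, fell by 0.16 to 0.24. Nav1, a microtubule-associated protein of growing neurites, was the sole one separated without overlap, with 153 to 160 CPM in the rich and 168 to 187 CPM in the poor libraries. Of the 7, 0 kept their call without each library in turn, and Kcnmb2 lost its call without saline 38 among others.

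Of the 481 genes called higher, 420 were on none of the choroid plexus lists. The largest fold changes among those with a mean of at least 1 CPM were Oca2, a melanosomal transporter (4.53), Tmprss11a, a membrane protease (4.36), and Wfdc2, a secreted protease inhibitor (3.97). Others were singled out after their values were seen, because they belong to known functions of this epithelium. How many of the 420 have such functions was not counted, so these genes do not describe the 420. Sulf1, which trims heparan sulfate, was higher by 2.42, Crhr2, a corticotropin-releasing hormone receptor, by 1.95, and Cdkn1c, a cell cycle inhibitor, by 1.93. Atp7a, a copper pump, was higher by 0.90, and Tjp3, a tight junction scaffold, by 2.18. Several genes that neurons or glia also express in quantity passed with small changes: Bsg, a chaperone of lactate transporters, by 0.42 at a mean of 397 CPM in the rich libraries, Slc23a2, the ascorbate transporter, by 0.27 at 186 CPM, and Slc4a10, a bicarbonate transporter, by 0.27 at 281 CPM. The call of Slc4a10 was lost without saline 38 and without ACLP-NT 55.

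The difference between classes was next read within each treatment, with the spread pooled over all libraries. The median log2 fold change of the choroid plexus lists was 2.58 within saline (1 rich against 3 poor), 2.35 within Aducanumab (2 against 2) and 2.40 within ACLP-NT (4 against 1). Kl differed by 3.02 (SE 0.469), 2.72 (SE 0.476) and 2.64 (SE 0.607) within the 3 treatments, and Enpp2 by 3.30, 2.94 and 3.14. Taken alone, saline gave 26 calls in edgeR, Aducanumab 0 (1763 genes at an unadjusted p under 0.05) and ACLP-NT 1. All 481 genes called higher were above 0 in each treatment, beside 4102 of all 22064 genes, which the choice of those genes from the same libraries favours. At least 1 class within saline and within ACLP-NT is a single library, so the spread of that library is taken from the others. In a test of whether the class difference itself differed between treatments, 1 gene of 22064 passed (0.00453%): Slc10a3 (edgeR adjusted p 0.0487), which had 0 counts in ACLP-NT 55 and 2.3 to 4.5 CPM in the other libraries. Without the filter on low counts 0 genes passed (edgeR), and with DESeq2's likelihood ratio test 11 did.

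A treatment comparison of choroid plexus genes changed size, and for ACLP-NT direction, with the classes taken into account. Both comparisons share the saline libraries. Without a choroid term, the median log2 fold change of the choroid plexus lists was 0.47 for ACLP-NT over saline and 0.59 for Aducanumab over saline. With the class as a term it was -0.48 and 0.15, and with log2 Ttr as a term in place of the class it was -0.08 and 0.03. The 4 rich ACLP-NT libraries had 1549 to 4491 CPM of Ttr, and the rich saline library had 4543. The median of motile cilia for ACLP-NT went from 0.20 to -0.18 with the class and to -0.09 with log2 Ttr. Interferon response went from -0.28 to -0.47 and -0.45, fibroblasts from -0.17 to -0.53 and -0.43, and border-associated macrophages from -0.04 to -0.45 and -0.30. MHC class II went from -0.57 to -0.89 and -0.91, and disease-associated microglia stood at -0.32, -0.35 and -0.36. For Aducanumab the medians in the same order were 0.39, 0.13 and 0.04 for motile cilia, -0.22, -0.28 and -0.33 for interferon response, 0.31, 0.14 and 0.13 for fibroblasts, and 0.22, -0.04 and -0.06 for border-associated macrophages. They were -0.15, -0.18 and -0.31 for MHC class II, and -0.17, -0.21 and -0.23 for disease-associated microglia. These medians are descriptions of the same libraries, and the difference between them was not tested. In edgeR, 0 genes passed for either treatment with the class as a term (1405 at an unadjusted p under 0.05 for ACLP-NT and 1006 for Aducanumab) or without it (1298 and 1033), and DESeq2 with the class called 7 and 8. The common biological coefficient of variation, the spread between libraries that the fit leaves unexplained, was 0.226 with treatment alone and 0.195 with treatment and class.

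**Figure D5:**
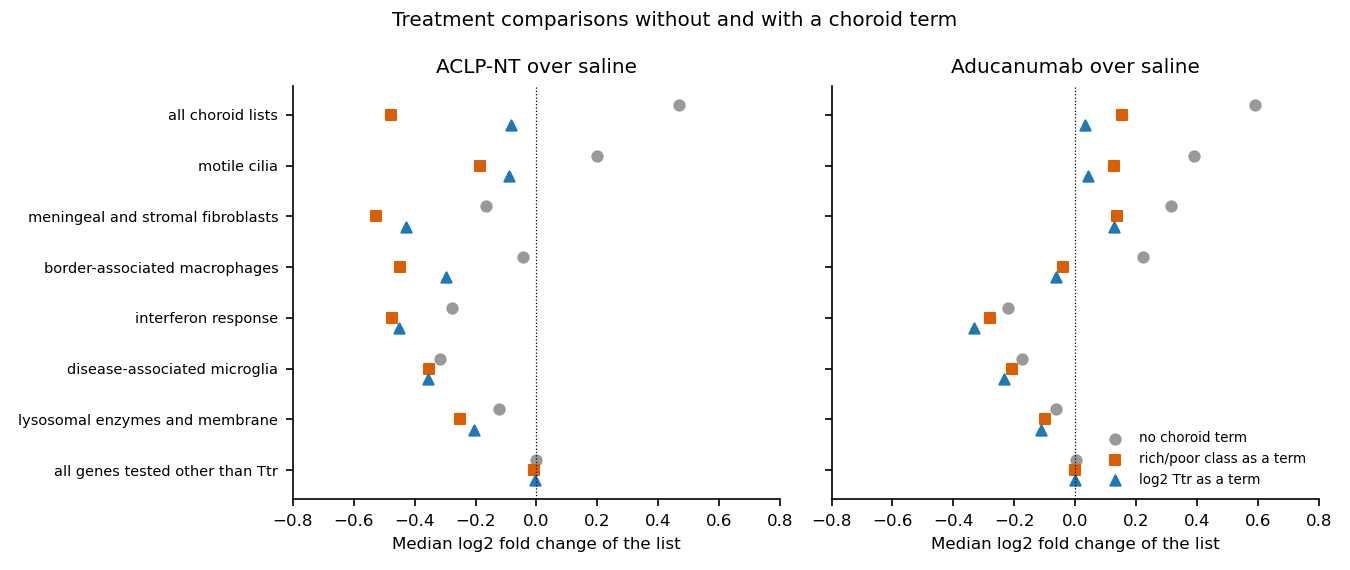
Median log2 fold change of 7 gene lists and of all genes tested for ACLP-NT over saline (left) and Aducanumab over saline (right), without a choroid term (circles), with the class as a term (squares) and with log2 Ttr as a term (triangles). The choroid plexus median of ACLP-NT lies at 0.47, -0.48 and -0.08, and that of all genes stays near 0.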

How the data were processed

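The members and gene lists were chosen with earlier results of these data known. Per the labels' protocols, oligo(dT) beads were used; per the submitters' processing notes, cutadapt 1.9, HISAT2 2.0.4, StringTie 1.3.4d and edgeR were used by the authors, and the sources used here name neither the counter nor the genome build. The deposited table of 36287 genes holds raw whole-number counts and, per the file headers, FPKM values that the authors scaled by gene length and library size. 

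Ttr CPM was its count divided by the column sum and multiplied by 1000000. Genes were filtered with filterByExpr (22065 kept, Ttr among them), scaled by TMM and fitted with edgeR 4.0.16 (glmQLFit, glmQLFTest, two-sided) with treatment and class as terms. Standard errors are the absolute log2 fold change over the square root of F. Levels are CPM after TMM. The method was tested on simulated data. Alternatives were no filter, RLE and upper quartile scaling, a robust fit, DESeq2 1.42.0, no treatment term, Ttr thresholds of 300 and 2000 CPM, log2 Ttr in place of the class, limma 3.58.1 on log2(FPKM + 1) and each library left out; 2 pairs of libraries were left out after seeing the data.

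Of 31 gene lists, the 4 of choroid plexus genes were also pooled. The rule for named genes took the 12 genes with the largest fold changes among called genes of at least 1 CPM in each direction, called choroid plexus genes, up to 3 genes of each other list, a fixed set such as App and Trem2, and the 5 with the least variable ratio to Ttr. Predicted genes and pseudogenes were passed over, some called genes are not reported here, not all genes under the rule are discussed, and genes outside the rule are listed to account for the lists or were chosen after their values were seen. The least-squares lines were also chosen after seeing the data. Low genes are imprecise: at 0.3 CPM a library holds under 30 counts.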

Additional observations from a re-analysis of the deposited data

Results flagged for a closer look

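Of 270 groups of 6 or 7 libraries examined, 10 had a highest or lowest library far from the others of its class, and chance alone gives about 1 in 20. In the poor libraries, Aducanumab 50 had a score for thalamus and habenula (mean centred log2 CPM of the list) of 0.98, with the others between -0.37 and 0.02, and saline 18 had a score for amyloid processing of 0.073, with the others between -0.058 and -0.019. Saline 32 had the lowest poor level of Clec2l, at 29.4 CPM against 33.1 or more, and of Atp7a, at 5.50 CPM against 7.03 or more, and the highest of Tjp3, at 1.87 CPM against 1.33 or less. Saline 19 had 37.2 CPM of Sox9, with the other poor libraries at 31.2 or less. In the rich libraries, ACLP-NT 17 had 62.8 CPM of Tmem25 against 58.7 or less, ACLP-NT 53 had 4.39 CPM of Lmx1a against 2.55 or less, ACLP-NT 27 had 0.59 CPM of Exoc3l2 against 0.99 or more, and Aducanumab 58 had 39.1 CPM of Slc22a8, the organic anion transporter, against 26.4 or less. The class difference of Slc10a3 differed between treatments (edgeR adjusted p 0.0487), with 0 counts in ACLP-NT 55.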

How the results depend on the processing

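Fold changes of named genes were compared under no filter, RLE, upper quartile, DESeq2, no treatment term, and with single libraries and 2 pairs left out. The robust fit, the Ttr thresholds of 300 and 2000 CPM, log2 Ttr and limma were not part of that comparison. Of the fold changes compared, 1808 kept their direction and side of the threshold, 160 lost and 11 gained a call. Another 21 turned direction, all in Trem2, Cst7, Gfap, Mbp and Atp1b1, which were not called. In all, 61 choroid plexus genes were called under no filter, RLE, upper quartile, the robust fit and no treatment term, 60 with limma on FPKM, 63 with DESeq2 and 63 with log2 Ttr, 59 at a Ttr threshold of 2000 CPM and 12 at 300 CPM, where saline 19 and Aducanumab 24 become rich. The cause of the changes below was not tested. Genes called higher numbered 779 with DESeq2, 18 at a threshold of 300 CPM, 244 without Aducanumab 50 and 58, and 174 to 572 without single libraries. Genes called lower numbered 2 without the filter, 65 with DESeq2, 12 without the treatment term, 0 at 300 CPM, 47 at 2000 CPM, 4 without saline 19 and Aducanumab 24, 1 without Aducanumab 50 and 58, and 1 to 13 without single libraries. For ACLP-NT and Aducanumab over saline with the class as a term, DESeq2 called 7 and 8 genes, and leaving out single libraries gave 0 to 1 in both. The interaction of class and treatment gave 0 genes without the filter and 11 with DESeq2's likelihood ratio test. Log2 fold changes that turned direction were -0.14 for Trem2 and -0.22 for Cst7 without the treatment term, and -0.074 for Trem2, -0.19 for Cst7 and 0.0058 for Atp1b1 without Aducanumab 50 and 58. Without single libraries the log2 fold change of Trem2 ran from -0.079 to 0.14, the log2 fold change of Cst7 from -0.15 to 0.19, the log2 fold change of Gfap from -0.0912 to 0.055 and the log2 fold change of Mbp from -0.11 to 0.055. No paired analysis was possible because no replicate number occurs in more than 1 treatment. Depth limits genes such as Folr2 and Exoc3l2, at about 1 CPM or less.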
